A study of Mus musculus with 6 samples.

Results

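Cells of the whole mouse lung at embryonic day (E) 18.5 were chosen by a gate for pericytes, the mural cells that sit on capillaries inside the basement membrane of the endothelium. A barcode passed when it had at least 700 genes and 0.5% to 10% mitochondrial UMIs (unique molecular identifiers, 1 per captured transcript), a sum of Cox4i2, Higd1b and Kcnk3 of at least 2, and a sum of Pdgfrb and Notch3 of at least 1. It also needed a sum of Pecam1 and Cdh5 of at most 1, and no Epcam and no Ptprc. All of these values were read from the table that the authors had adjusted for free RNA with SoupX. The gate held 785 of the 16515 cells that passed the gene and mitochondrial limits. Of these, 330 came from 7448 cells of the library labelled control (4.43%, exact 95% interval 3.97 to 4.92) and 455 from 9067 cells of the library labelled null (5.02%, 4.58 to 5.49). Because the cells were selected on measured transcripts, the levels of the gate genes, and every contrast of gated with other cells, are descriptions and not tests.

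The study asked how lung cells differ with and without the chemokine CXCL12, using mice in which the reporter DsRed is knocked into Cxcl12. The control library is labelled Cxcl12DsRed/+ and the null library Cxcl12DsRed/DsRed, so both groups carry at least 1 reporter copy and no lung was without it. The paper describes whole lungs of more than 1 embryo per genotype, whereas the protocol in the labels describes sorted cells. The files held 634 and 455 epithelial and 624 and 697 immune cells by their own markers. Each genotype gave 1 library, so no test between genotypes was possible, and the intervals below cover counting error only. Depth was alike, with a median of 9525.5 UMIs per gated cell in the library labelled control and 10674 in the library labelled null, and 3542438 and 5411926 UMIs in all. SoupX had removed 40.8% of the UMIs of the gated cells in the first library and 18.8% in the second. The libraries shared 140 barcodes, of which 0 were gated in both libraries.

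The targeted gene went against the labels. Over all deposited barcodes, Cxcl12 stood at 1.27 UMIs per 1000000 UMIs (CPM; 109 UMIs, interval 1.04 to 1.54) in the library labelled control and at 192 CPM (19986 UMIs, 189.8 to 195) in the library labelled null. The names of the deposited files also give the opposite genotypes. The groups are therefore called the library labelled control and the library labelled null throughout, and no difference between them is read as an effect of losing CXCL12. The libraries differed in sex too, since Xist was at 0.595 and 766 CPM. Of the gated cells, 265 of 330 in the library labelled control had Y-linked transcripts and no Xist, and 0 had Xist alone. In the library labelled null 152 of 455 had Y-linked transcripts alone and 218 had Xist alone. Genotype, sex and library cannot be told apart in the totals. In what follows a pair of values gives the library labelled control first.

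Pericytes are recruited to new capillaries by endothelial PDGF-B acting on the receptor PDGFRB, are kept mural by NOTCH3 signalling, and share the basement membrane with the endothelium. They relax through nitric oxide, soluble guanylate cyclase and cyclic GMP, and in the lung they carry an unusual set of mitochondrial and potassium channel genes, which the gate uses. CXCL12 is a secreted chemokine read by the receptor CXCR4, while ACKR3 binds and clears it.

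The gate genes lie on different chromosomes. In GRCm38 with the GENCODE M21 annotation, Cox4i2, an isoform of subunit 4 of cytochrome c oxidase, is at chr2:152754173-152765037 (+ strand). Higd1b, a mitochondrial protein of the hypoxia-inducible domain family, is at chr11:102835849-102838040 (+ strand). Kcnk3, an acid-sensitive background potassium channel, is at chr5:30588170-30625271 (+ strand). Notch3 is at chr17:32120820-32166852 (- strand) and Cxcl12 at chr6:117168535-117181367 (+ strand). The 250 bases before the start of Cxcl12 and of Notch3 are shown from RefSeq (GRCm38.p6), the former because the reporter allele alters this gene and the latter because Notch3 helps to define the cells. Capitals mark TGGGAA or, on the other strand, TTCCCA, the core that the Notch partner RBPJ binds.
Cxcl12, chr6:117168285-117168534, + strand: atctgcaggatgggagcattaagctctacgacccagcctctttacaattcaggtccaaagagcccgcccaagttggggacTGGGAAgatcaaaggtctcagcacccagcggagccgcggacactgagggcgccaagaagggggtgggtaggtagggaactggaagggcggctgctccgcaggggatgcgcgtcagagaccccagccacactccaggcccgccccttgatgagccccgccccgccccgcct
Notch3, chr17:32166891-32167140, - strand: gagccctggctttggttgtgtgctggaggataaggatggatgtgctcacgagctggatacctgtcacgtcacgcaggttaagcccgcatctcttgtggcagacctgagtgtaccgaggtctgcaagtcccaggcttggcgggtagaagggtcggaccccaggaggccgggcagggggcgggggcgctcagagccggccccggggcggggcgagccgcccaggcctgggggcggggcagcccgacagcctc
The Cxcl12 window held 1 match and the Notch3 window 0. Of all 32851 promoter windows of this length, 7094 (21.6%) held the motif. Of the 20 leading genes of the gated cells, 8 had an entry in the table, with 11 windows in all, of which 4 (36.4%) held it.

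The gated cells were not 1 kind of cell. They were divided by which gate gene let them in. Higd1b-positive cells had at least 1 adjusted UMI of Higd1b and numbered 118 (35.8%) and 147 (32.3%). Cox4i2-led cells had less than 1 of Higd1b but at least 1 with Cox4i2 added, and numbered 117 (35.5%) and 185 (40.7%). Kcnk3-only cells had less than 1 of both together and numbered 95 (28.8%) and 123 (27.0%). This division used 2 of the gate genes, so only other genes bear on what the cells are.

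The label was met best by the Higd1b-positive cells. The other 14 pericyte markers listed, none of them in the gate, summed to 7170 and 7065 CPM in them, to 3595 and 3070 CPM in Cox4i2-led cells and to 1157 and 1117 CPM in Kcnk3-only cells. Smooth muscle cells, gated by their contractile genes, had 1543 and 1658 CPM, and myofibroblasts, gated by Hhip and Pdgfra, had 970.2 and 1108 CPM. For contrasts of strata, a gene counted when it had at least 50 CPM in either kind of cell and was at least 2-fold apart, on the log2(CPM + 5) scale, in both libraries. Of the 12 markers with that level, 11 were higher in Higd1b-positive than in smooth muscle cells, where 7.28% of all such genes were higher and 8.76% lower, and 1, Rgs5, was lower. In Cox4i2-led cells 6 of 10 were higher and Rgs5 lower (all genes, 3.63% higher and 7.42% lower). In Kcnk3-only cells 1 of 10, Lamc3, was higher and 2, Rgs5 and Mcam, were lower (all genes, 2.91% higher and 2.37% lower). Of 13 markers, 11 were lower and Lamc3 was higher in Kcnk3-only than in Higd1b-positive cells, where 5.5% of all genes were lower and 7.78% higher. By these markers the Kcnk3-only cells went against the label, although they had passed every line of the gate.

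**Figure D1:**
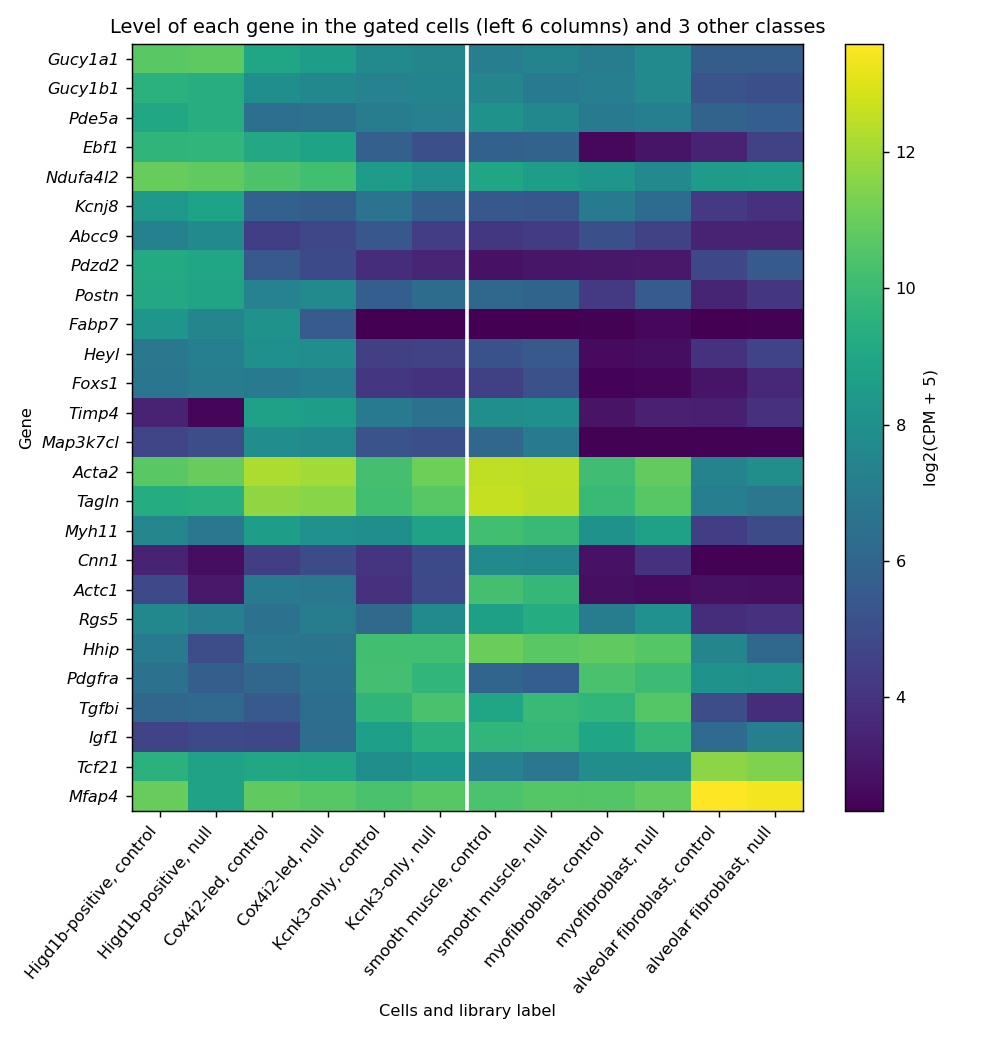
Level of 26 genes (rows) as log2(CPM + 5) by colour, in the 3 strata of the gated cells (left 6 columns) and in 3 other classes (right 6 columns), each for the library labelled control and the library labelled null. Gucy1a1, Ebf1 and Kcnj8 are brightest in the Higd1b-positive columns, Acta2 and Tagln in the Cox4i2-led and smooth muscle columns, and Hhip and Pdgfra reach the Kcnk3-only columns.

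Of 5 genes of the nitric oxide and cyclic GMP pathway over 50 CPM, out of 8 listed, 3 (Gucy1a1, Gucy1b1 and Pde5a) were higher in Higd1b-positive than in Cox4i2-led cells, where 3.41% of all genes were higher and 2.06% lower. Against Kcnk3-only cells 4 of 5 were higher, beside 5.5% of all genes, and against smooth muscle cells 2 of 6, beside 7.28%. Gucy1a1, the alpha subunit of soluble guanylate cyclase, stood at 1692 and 1749.9 CPM in these cells, at 482 and 384 CPM in Cox4i2-led cells and at 198 and 178 CPM in Kcnk3-only cells, with 138 and 165 CPM in smooth muscle cells. Gucy1b1, its partner subunit, followed the same order with 739 and 653 CPM, 242 and 184 CPM and 156 and 164 CPM. Pde5a, the phosphodiesterase that breaks down cyclic GMP, was at 514 and 648 CPM in Higd1b-positive cells and only 81.5 and 87.1 CPM in Cox4i2-led cells, below the 263 and 189.5 CPM of smooth muscle cells. Prkg1, the kinase that cyclic GMP activates, differed less, with 64.4 and 60.3 CPM, 60.2 and 42.2 CPM and 31.3 and 30.5 CPM.

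Both subunits of the ATP-sensitive potassium channel had the same pattern. The pore gene Kcnj8 was at 341 and 464 CPM in Higd1b-positive cells against 51.8 and 45.3 CPM in Cox4i2-led cells, and the regulatory subunit Abcc9 at 149 and 204 against 16 and 21.5 CPM. Trpc6, a cation channel, was at 51.6 and 61.4 against 5.33 and 4.84 CPM. Kcna5, a voltage-gated potassium channel of arterial muscle, was the reverse, with 1.5 and 0 CPM in Higd1b-positive cells and 85.3 and 50.1 CPM in Cox4i2-led cells. Kcnk3 itself was no private gene of the gate, since it reached 202 and 204 CPM in myofibroblasts and 179 and 181 CPM in smooth muscle cells, beside 228 and 190.5 CPM in Higd1b-positive cells.

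Of 9 isoforms of the respiratory chain over 50 CPM, 3 were higher in Higd1b-positive than in smooth muscle cells, where 7.28% of all genes were higher and 8.76% lower. The 3 were Ndufa4l2 and the gate genes Cox4i2 and Higd1b, which the choice of cells fixed, and 1, Ndufa4, was lower. The assay counts 1 end of each transcript, so the UMIs of paired genes can be set side by side without a correction for length. Cox4i2 made up 63.8% (62.2 to 65.5) and 53.8% (52.2 to 55.4) of the Cox4i2 and Cox4i1 UMIs in Higd1b-positive cells, which the gate favoured. It made up 44.6% and 35.1% in Cox4i2-led cells, 4.65% and 2.76% in Kcnk3-only cells and 2.35% and 3.02% in smooth muscle cells. Cox4i2 itself divided the Cox4i2-led from the Kcnk3-only cells, so the choice of cells fixed the order of these shares. Ndufa4l2, a hypoxia-induced relative of the respiratory chain subunit Ndufa4 and not a gate gene, made up 91.6% (90.5 to 92.6) and 95.5% (94.8 to 96.2) of the Ndufa4l2 and Ndufa4 UMIs in Higd1b-positive cells. Its share was 80.4% and 72.8% in Cox4i2-led cells, 43.9% and 31.3% in Kcnk3-only cells, 38.0% and 35.1% in smooth muscle cells and 5.39% and 4.08% in arterial endothelial cells. The level of Ndufa4l2 was 1986 and 1848 CPM in Higd1b-positive cells and 1388 and 1142 CPM in Cox4i2-led cells. Cox4i1 ranged over the strata only from 802 to 989 CPM.

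Of 7 Notch genes over 50 CPM, out of 13 listed, 5 were lower in Kcnk3-only than in Higd1b-positive cells. Of all genes in that contrast, 5.5% were lower and 7.78% higher. Against Cox4i2-led cells 6 of 8 were lower in Kcnk3-only cells, where 3.95% of all genes were lower and 7.81% higher. Both counts include Notch3, a gene of the gate. Between Higd1b-positive and Cox4i2-led cells 0 of 8 were apart. Of 14 transcription factors over 50 CPM, out of 22 listed, 4 were lower and 1 higher in Kcnk3-only than in Higd1b-positive cells, and of 15, 5 were lower and 4 higher than in Cox4i2-led cells. Between Higd1b-positive and Cox4i2-led cells 2 of 15, Foxf1 and Tbx5, were higher in the former and 1 in the latter. Of all genes, 3.41% were higher in the former and 2.06% in the latter. Ebf1, a helix-loop-helix factor at chr11:44617317-45008091 (+ strand), was at 819.6 and 851 CPM, 550.0 and 462 CPM and 50.4 and 29.0 CPM in the 3 strata, and at 0.885 and 2.72 CPM in myofibroblasts. Foxs1, a forkhead factor, was at 103 and 132 CPM, 125 and 139 CPM and 12.3 and 10.9 CPM. Heyl, a target of Notch signalling, was highest in Cox4i2-led cells, with 246 and 227 CPM against 111 and 139 CPM in Higd1b-positive and 16.8 and 18.1 CPM in Kcnk3-only cells. The Notch target Hey2 was at 27.7 and 25 CPM, 85.3 and 46.6 CPM and 4.48 and 8.70 CPM. Among the 3 strata both Heyl and Hey2 were highest in the Cox4i2-led cells. The ligand Jag1 was at 12 and 14.8 CPM, 41.1 and 42.2 CPM and 11.2 and 10.2 CPM. Notch3, which is in the gate, was at 335 and 225 CPM, 382 and 247 CPM and 43.6 and 41.3 CPM. Tbx5 and Foxf1, factors of lung mesenchyme, were highest in the Kcnk3-only cells, with Tbx5 at 406 and 345 CPM and Foxf1 at 346 and 358 CPM, and lowest in Cox4i2-led cells, at 89.9 and 75.6 CPM and 54.8 and 69.5 CPM.

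Of 11 contractile genes over 50 CPM, out of 14 listed, 4 (Acta2, Tagln, Myh11 and Lmod1) were higher in Cox4i2-led than in Higd1b-positive cells and 1, Des, was lower. Of all genes, 2.06% were higher and 3.41% lower. Against Kcnk3-only cells only Lmod1 was higher, beside 3.95% of all genes. Acta2, smooth muscle actin, was at 4734 and 4234 CPM in Cox4i2-led cells. It was at 1683 and 2035 CPM in Higd1b-positive cells and 5757 and 5700.0 CPM in smooth muscle cells. Tagln, an actin-binding protein of smooth muscle, was at 3417 and 3071 CPM, 619.7 and 689.6 CPM and 6279 and 5443 CPM in the same order. The 14 contractile genes summed to 12850.2 and 11242 CPM, between the 5734 and 5902 CPM of Higd1b-positive cells and the 20733 and 19073 CPM of smooth muscle cells. Of the 14, 7 were at least 2-fold lower in Cox4i2-led than in smooth muscle cells in both libraries, beside 7.42% of all genes. These include Myh11, Cnn1, Actg2 and Des, which the smooth muscle gate used, as it did Acta2, Tagln and Lmod1. The choice of cells thus favoured these lower calls and the high sum of smooth muscle cells. Cnn1, calponin, was at 16 and 25.5 CPM against 207 and 183 CPM in smooth muscle cells, and Actc1, cardiac actin, at 118 and 108 against 1234 and 896 CPM. Timp4, an inhibitor of metalloproteinases, was at 427 and 377 CPM in Cox4i2-led cells and near 0 in Higd1b-positive cells, with 5.99 and 0.569 CPM. Map3k7cl was at 223 and 201 CPM against 20.2 and 27.9 CPM. Rgs5, often used to name pericytes, was higher in smooth muscle cells, at 419 and 624 CPM, than in Higd1b-positive cells, at 185 and 142 CPM.

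The Kcnk3-only cells held the genes of myofibroblasts. Pdgfra, the receptor of PDGF-A, was at 1209.7 and 862 CPM in them, against 86.8 and 48.3 CPM in Higd1b-positive cells and 1325 and 1057 CPM in myofibroblasts. Hhip, which binds hedgehog ligands, was at 1146 and 1168 CPM against 125 and 26.7 CPM, and Ednrb, an endothelin receptor, at 1299 and 1292 against 93.6 and 66.5 CPM. Tgfbi, a matrix protein, was at 815 and 1305 CPM against 60.6 and 67.7 CPM, and the growth factor gene Igf1 at 409.6 and 698 CPM against 19.5 and 22.7 CPM. Of the 6 listed myofibroblast genes, 5 were higher in Kcnk3-only than in Higd1b-positive cells, and 1, Aspn, was lower. Of all genes, 7.78% were higher and 5.5% lower. Compared cell by cell after each cell had been thinned to 2000 UMIs, the median sum of Pdgfra and Hhip was 5 and 4 UMIs in Kcnk3-only cells and 0 in all 4 groups of the other strata.

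**Figure D2:**
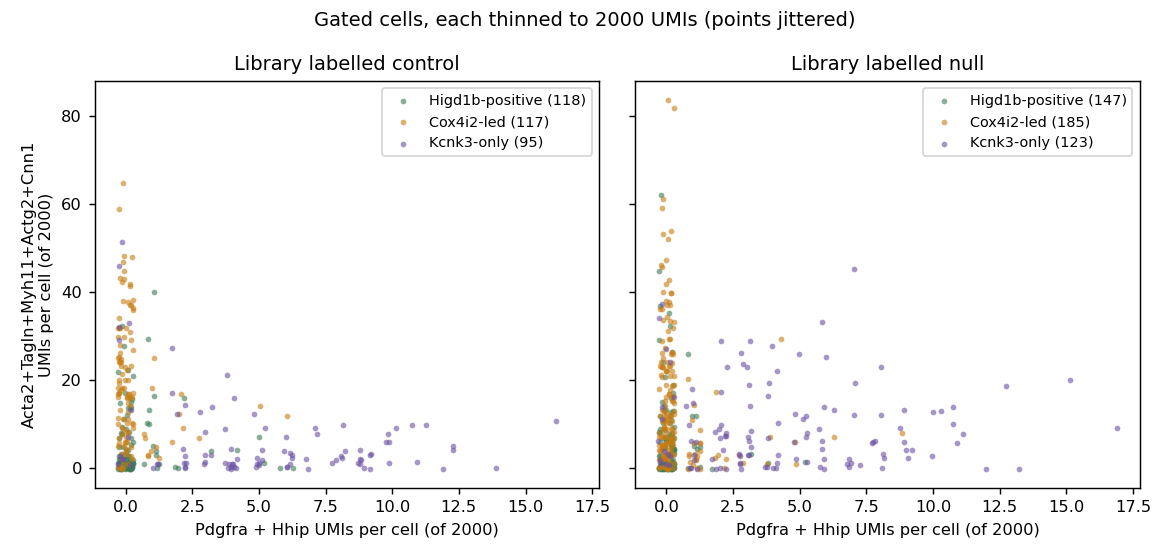
Each point is 1 gated cell thinned to 2000 UMIs, with the sum of Pdgfra and Hhip UMIs on the x axis and the sum of 5 contractile genes (Acta2, Tagln, Myh11, Actg2, Cnn1) on the y axis, coloured by stratum, with 1 panel per library. The Kcnk3-only cells spread along the x axis with a median of 5 and 4, and the median on the y axis is 16 and 9 for Cox4i2-led cells, 1 and 2 for Higd1b-positive cells and 2 and 6 for Kcnk3-only cells.

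RNA of other cell types moved with the strata. The 9 immune markers summed to 975.8 and 471 CPM in Kcnk3-only cells, against 35.9 and 180.2 CPM in Higd1b-positive and 51 and 39.1 CPM in Cox4i2-led cells, and 0 of the 9 were at 0 in any stratum. C1qa, a complement gene of macrophages, was at 322 and 111 CPM in Kcnk3-only cells and at 0.748 and 46.6 CPM in Higd1b-positive cells. The 8 epithelial markers summed to 87.3 and 1467 CPM in Kcnk3-only cells, with Sftpb and Krt8 at 0 in the library labelled control, and 1 cell held 75.4% of all Sftpc UMIs of the gated cells in the library labelled null. The 10 endothelial markers summed to 229 to 347 CPM over the strata and libraries, where endothelial cells other than arterial had 9957 and 10231 CPM, and of the 10 only Tie1 was at 0, in the Kcnk3-only cells of the library labelled control. Scrublet called 1.82% (6 cells) and 5.05% (23 cells) of the gated cells doublets, among them 15 of the 123 Kcnk3-only cells of the library labelled null. The part of this RNA in the strata was not tested.

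The lower limit of the gate cut through the myofibroblast-like profile. Cells just inside it, with a marker sum of 2 to 3, numbered 56 and 102 and had Gucy1a1 at 282 and 204 CPM and Hhip at 799 and 733 CPM. Cells just outside it, with a sum of 1 to 2, numbered 71 and 110 and had 212 and 255 CPM of Gucy1a1 and 887 and 579 CPM of Hhip. Cells with a sum of 10 or more numbered 154 and 183 and had 1401 and 1415 CPM of Gucy1a1 and 136 and 57.7 CPM of Hhip. When the same gate was read from the unadjusted counts, 821 and 945 cells passed, of which 318 and 440 were also in the gate described here.

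Relative to all other cells of their library, genes were ranked by the smaller of the log2 ratios of the libraries. The leading genes were therefore high in both libraries by choice. Of 2834 genes with at least 50 CPM in the gated cells of both libraries, 131 (4.62%) were 2-fold higher in both, a contrast that the gate itself had used. After Higd1b and Cox4i2, the first were Ebf1, at 526 and 478 CPM against 16.2 and 25.4 CPM in the other cells, Timp4, Map3k7cl, Foxs1 and Gucy1a1, at 867 and 775 CPM against 45.9 and 57.9 CPM. Further leading genes were Heyl, Notch3, Pdgfrb, Aoc3, Rrad, Cdh2, Ndufa4l2, Hspb2, Rgs7bp, Postn, Fabp7 and Fam162b. Gate genes made up 4 of the 20 leading genes. The leading list mixes strata. Timp4 and Map3k7cl were higher in Cox4i2-led than in Higd1b-positive cells, and Timp4 was also at 120 and 90.7 CPM in Kcnk3-only cells. Fam162b was higher in Higd1b-positive cells, at 133 and 144 CPM against 2.29 and 1.76 CPM in Cox4i2-led cells.

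Against the cells of the smooth muscle gate, 130 of 3210 genes (4.05%) were 2-fold higher in the gated cells in both libraries and 151 (4.7%) lower. Dlk1, a membrane ligand related to Delta, was at 1881 and 1992 CPM against 92.5 and 238 CPM, and it was highest in Higd1b-positive cells, at 3331 and 3476 CPM. Fabp7, a fatty acid binding protein, was at 211 and 72.4 CPM and had 0 UMIs in the smooth muscle cells of both libraries, which allows up to 2.24 and 1.87 CPM (3 UMIs). Pdzd2, Tnfrsf21, Mapt, Nostrin and Fam162b were also among the genes most above smooth muscle cells. The muscarinic receptor Chrm2, at 5.65 and 0.554 against 211 and 136 CPM, led the lower genes. It was followed by Actc1, Grin2b, Sbspon, Clu, Tdo2, Ngb, Mpped2, Cnn1 and Ddit4l. The smooth muscle gate took in cells with 2152 and 1647 CPM of Hhip, so it need not be vascular muscle. They had 53.0 and 56.7 CPM of Notch3 and 55.2 and 56.1 CPM of Pdgfrb. Cells of the pericyte gate, which required Notch3 or Pdgfrb, had been left out, so the choice of cells favoured low levels of both. The kind of muscle was not tested.

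Of 13 basement membrane genes over 50 CPM, out of 19 listed, 2 (Col4a1 and Col4a2) were higher in Higd1b-positive than in Cox4i2-led cells and 1, Lama5, was lower, and of 18 interstitial matrix genes, out of 22 listed, 1, Postn, was higher and 2 (Eln and Fbln5) were lower, beside the 3.41% and 2.06% of all genes. Col4a1, a chain of type IV collagen, was at 1915 and 1786 CPM in Higd1b-positive cells and 849 and 823 CPM in Cox4i2-led cells, and Col4a2, its partner chain, at 951 and 788 against 386 and 354 CPM. Postn, periostin, was at 559 and 479 CPM against 155 and 197 CPM. Eln, elastin, was the reverse, with 1097 and 765 CPM in Higd1b-positive cells and 4389 and 5032 CPM in Cox4i2-led cells. The 19 basement membrane genes summed to 6921 and 6273 CPM in Higd1b-positive cells, 4657 and 5177 CPM in Cox4i2-led cells and 4831 and 5218 CPM in Kcnk3-only cells.

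Of 7 genes of the vasomotor list over 50 CPM, out of 14 listed, 2 (Agtr1a and P2ry14) were higher in Higd1b-positive than in Cox4i2-led cells and 0 were lower. Of all genes, 3.41% were higher and 2.06% lower. Agtr1a, the angiotensin receptor, was at 98.0 and 72.2 CPM in Higd1b-positive cells, 38.9 and 26.8 CPM in Cox4i2-led cells and 1.12 and 0.725 CPM in Kcnk3-only cells. Ednra, the endothelin receptor of muscle, differed less, at 272 and 304 CPM, 261 and 206 CPM and 164 and 188 CPM. Pdgfrb, in the gate, was at 632 and 685 CPM in Higd1b-positive and 345 and 319.7 CPM in Cox4i2-led cells, while its ligand Pdgfb stayed between 3.36 and 16.8 CPM in every stratum. Angpt1, the ligand of the endothelial receptor TIE2, was at 108 and 82.4 CPM, 103 and 59.4 CPM and 17.9 and 18.9 CPM.

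A part of the cells carried cell cycle transcripts. After thinning to 2000 UMIs, 56 of 330 gated cells (17.0%, 13.1 to 21.5) and 88 of 455 (19.3%, 15.8 to 23.3) had a UMI of any of 8 genes of DNA replication and mitosis (Mki67, Top2a, Cdk1, Ccnb1, Ccna2, Birc5, Cenpf and Ube2c). Without thinning the shares were 38.5% and 45.9%. Among the strata, the share was highest in Higd1b-positive cells, at 25.4% (17.9 to 34.3) and 28.6% (21.4 to 36.6). It was lowest in Kcnk3-only cells, at 9.47% (4.42 to 17.2) and 11.4% (6.36 to 18.4). Smooth muscle cells had 9.77% and 9.69%, at a median depth of 7285 and 7284 UMIs. The sum of a longer list of 16 cell cycle genes was 967.0 and 1724 CPM in Higd1b-positive cells and 183 and 186 CPM in smooth muscle cells. A UMI of any of 5 contractile genes (Myh11, Cnn1, Actg2, Lmod1 and Des) was present in 61.8% (56.3 to 67.1) and 56.9% (52.2 to 61.5) of the thinned gated cells. It was present in 93.7% and 94.9% of smooth muscle cells, but their gate required these same 5 genes, so the choice of cells favoured that share. It was present in 1.98% and 2.78% of arterial endothelial cells, which lack these genes, at median depths of 7967 and 8578 UMIs. Without thinning 90.9% and 85.3% of the gated cells had one.

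Of the 3 strata of the library labelled null, the Cox4i2-led cells had the most Cxcl12 and the cells that best met the pericyte label the least. In the library labelled null, the gated cells held 497 Cxcl12 UMIs, or 91.8 CPM (83.9 to 100.3). Cox4i2-led cells held 366 of these, or 161 CPM (145 to 178), Kcnk3-only cells 105, or 76.2 CPM (62.3 to 92.2), and Higd1b-positive cells 26, or 14.8 CPM (9.66 to 21.7). After thinning, 38 of 185 Cox4i2-led cells (20.5%, 15 to 27.1) had a Cxcl12 UMI, against 2 of 147 Higd1b-positive cells (1.36%, 0.165 to 4.83). In immune cells, a class that should lack it, 5 of 696 (0.718%, 0.234 to 1.67) had one, at a median depth of 16199 UMIs against 11664 and 10590 in those strata. The share in Higd1b-positive cells did not stand above that background beyond counting error. Without thinning 51.9% of the Cox4i2-led, 34.1% of the Kcnk3-only and 12.9% of the Higd1b-positive cells had one. The SoupX-adjusted levels of the Cox4i2-led and Higd1b-positive cells were 164 and 5.99 CPM. In the library labelled control, the gated cells held 6 Cxcl12 UMIs, or 1.69 CPM (0.622 to 3.69). The Higd1b-positive cells held 0, which allows up to 2.25 CPM (3 UMIs).

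Over the gated classes of the library labelled null, the arterial endothelial cells were highest, at 1197 CPM (1178 to 1215). The adventitial fibroblasts followed at 152 CPM (138 to 167), then the smooth muscle cells at 97.3 CPM (82.6 to 114), the gated cells at 91.8 CPM, other endothelial cells at 40.9 CPM (37.9 to 44.0) and myofibroblasts at 32.7 CPM (29.6 to 36.1). Alveolar fibroblasts had 24.9 CPM (22.3 to 27.7), epithelial cells 9.67 CPM (7.84 to 11.8) and immune cells 9.08 CPM (7.49 to 10.9). Smooth muscle and gated cells, and epithelial and immune cells, were not separable within counting error, and the other neighbours were. With SoupX-adjusted levels alveolar fibroblasts (12.5 CPM) stood above myofibroblasts (8.48 CPM) and immune (1.53 CPM) above epithelial cells (0.297 CPM), so these places depend on the correction. Taken alone, the Cox4i2-led cells lay at the level of the adventitial fibroblasts, with overlapping intervals. In the library labelled control, arterial endothelial cells were highest as well, at 20.4 CPM (16.1 to 25.5), and 0 to 2 UMIs were found in myofibroblasts, in alveolar and adventitial fibroblasts and in epithelial, immune and smooth muscle cells. Within the library labelled null, gated cells with Xist alone had Cxcl12 at 69.1 CPM (59.1 to 80.4) and those with Y-linked transcripts alone at 104 CPM (89.3 to 121), both above the library labelled control.

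**Figure D3:**
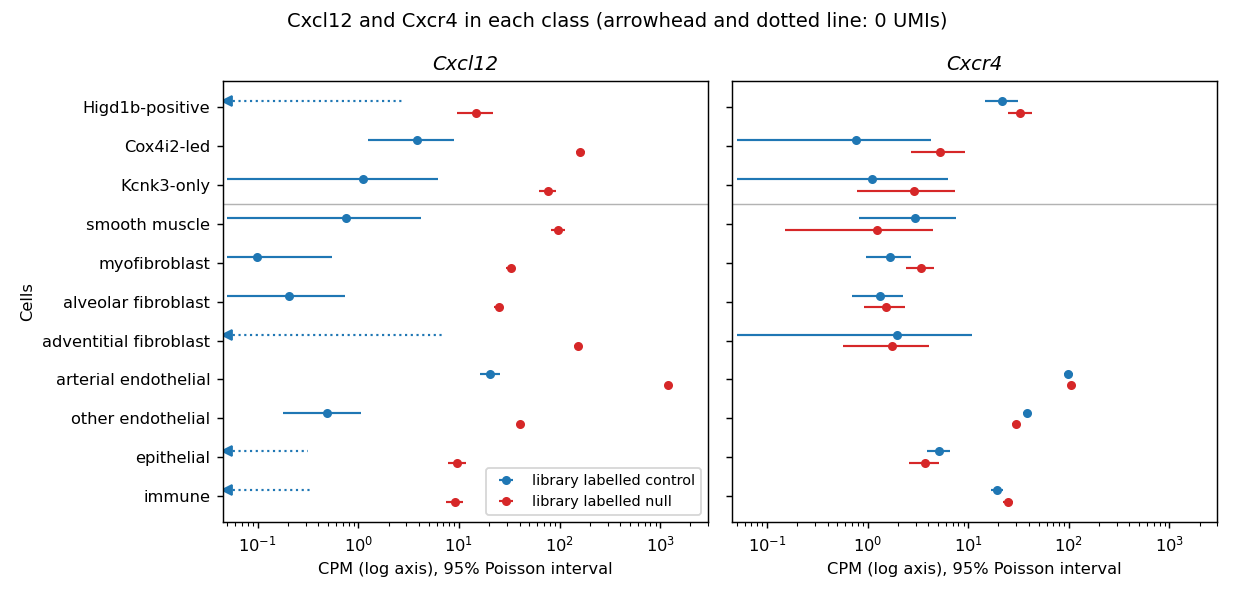
Cxcl12 (left) and Cxcr4 (right) in CPM on a log axis, with exact 95% Poisson intervals, in each stratum and class (rows), for the library labelled control and the library labelled null (colours). Arrowheads mark classes with 0 UMIs. Cxcl12 reached 161 CPM in Cox4i2-led cells of the library labelled null against 14.8 CPM in Higd1b-positive cells, while Cxcr4 was higher in the latter in both libraries.

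Among the 3 strata the receptor was highest in the Higd1b-positive cells. Cxcr4, at chr1:128588199-128592293 (- strand), stood at 21.7 CPM (14.5 to 31.2) and 33.0 CPM (25 to 42.6) in Higd1b-positive cells. It stood at 0.762 CPM (0.0193 to 4.24) and 5.28 CPM (2.73 to 9.22) in Cox4i2-led cells, and the intervals of these strata did not overlap in either library. Kcnk3-only cells had 1.12 and 2.90 CPM and smooth muscle cells 2.98 and 1.25 CPM, while arterial and other endothelial cells had 98.5 and 105 and 38.2 and 29.6 CPM. In the library labelled control, 10 of the Higd1b-positive cells held 75.9% of their 29 Cxcr4 UMIs, and in the library labelled null 43.1% of 58. After thinning, 5 of 118 (4.24%, 1.39 to 9.61) and 14 of 147 (9.52%, 5.31 to 15.5) Higd1b-positive cells had a Cxcr4 UMI, against 0 of 117 and 1 of 185 Cox4i2-led cells. In alveolar fibroblasts 2 of 1305 (0.153%, 0.0186 to 0.553) and 5 of 1514 (0.330%, 0.107 to 0.769) had one, where the median cell held 7305.5 and 8411 UMIs. In smooth muscle cells the shares were 1 of 174 (0.575%, 0.0145 to 3.16) and 0 of 196 (3 cells would be 1.53%). The intervals of Higd1b-positive cells and alveolar fibroblasts were apart in both libraries, and those of Higd1b-positive and smooth muscle cells in the library labelled null. Ackr3 was near the limit of counting, with 3 UMIs in the gated cells of the library labelled control and 21, or 3.88 CPM (2.40 to 5.93), in the library labelled null. Of these 21, 20 lay in Cox4i2-led cells, and other endothelial cells had 117 and 123 CPM.

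The 5 genes whose levels were most like those of Cxcl12 over 22 points (11 classes and strata in each library) were Xist, with a Pearson coefficient of 0.77 on the log2(CPM + 5) scale, Gm13305 (0.72), Cdk5rap3 (0.65), Eif4e2 (0.63) and Eef1g (0.59). They were picked out of 6117 genes. The 11 points of a library share that library, and Xist, which is set by sex, followed the library and not the class, with a coefficient of 0.14 over the 11 points of the library labelled null alone.

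Between the libraries, few genes were 2-fold apart in the gated cells. A gene was called when its log2 ratio of CPM + 5 was at least 1 in size, 1 library had at least 50 CPM, the Poisson intervals were disjoint and the SoupX-adjusted values had the same direction. Of 3180 genes, 16 (0.503%) were higher in the library labelled null and 6 (0.189%) lower, and the median log2 ratio was -0.03. With SoupX-adjusted levels in place of counts 34 were higher and 36 lower, so the balance of the directions depends on the correction. It also depends on the cells taken, since lower genes outnumbered higher ones in cells with Y-linked transcripts alone, as given below. The call is a rule of size. With 1 library per genotype it says nothing of the spread between lungs.

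Beside Cxcl12 (log2 ratio 3.85) and Xist (7.17), 14 genes were higher. Ptn, pleiotrophin, a heparin-binding growth factor, was at 50.2 and 309.9 CPM, with a log2 ratio of 2.51. Dcn, the proteoglycan decorin, was at 5.93 and 71.0 CPM (2.80), and Mfap5, a microfibril protein, at 10.2 and 79.8 CPM (2.48). S100a6, a calcium-binding protein, was at 39.5 and 167 CPM (1.95), the serine protease family gene Prss35 at 16.7 and 66.3 CPM (1.72), and the B cell chemokine Cxcl13 at 15.5 and 60.2 CPM (1.67). The other named genes were Emp1 (1.43), Osr1, a transcription factor of mesoderm (1.31), Nnat (1.21), Ube2c, which acts in mitosis (1.15), and Ccl11, the chemokine eotaxin (1.13). The genes S100a10, Fmo1 and Vcan completed the 16. Several rested on few cells. In the library labelled null, 39 of 455 gated cells held all Dcn UMIs and 3 of them 54.4%, and 1 cell held 26.7% of the Cxcl13 UMIs. Ptn was found in 127 cells, of which the top 3 held 18.9%. Ube2c was found in 53 of 330 cells (16.1%) and 72 of 455 (15.8%), of which 10 held 64.2% and 58.4% of its UMIs.

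The 6 lower genes were Fabp7, at 211 and 72.4 CPM (-1.48), Igfbp3, which binds insulin-like growth factors, at 105 and 35.7 CPM (-1.44), Parm1, at 90.3 and 36.6 CPM (-1.20), and Ecm1, a matrix protein, at 69.2 and 27.9 CPM (-1.17). Rgs7bp, which anchors regulators of G protein signalling, was at 151 and 64.9 CPM (-1.16), and Gpx3, a secreted glutathione peroxidase, at 442 and 216 CPM (-1.01). Fabp7 was found in 113 of 330 and 89 of 455 cells, Rgs7bp in 159 and 136, and Igfbp3 in 68 and 63.

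**Figure D4:**
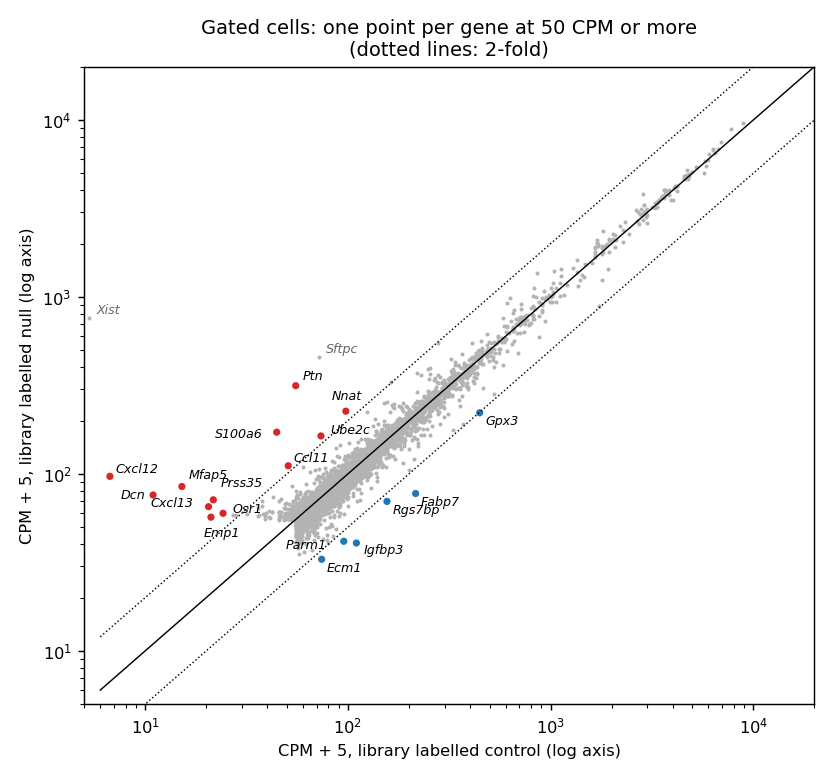
Each point is 1 gene of at least 50 CPM in the gated cells of either library, at its CPM + 5 in the library labelled control (x) and in the library labelled null (y), both on log axes, with dotted lines at 2-fold. The 12 named higher genes are red and the 6 lower ones blue, and most of the 3180 points follow the diagonal. Xist, which is sex-linked, and Sftpc, whose direction changed with SoupX, are grey.

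By stratum the differences were not alike. Ptn was at 41.2 and 52.9 CPM in Higd1b-positive cells and at 83.0 and 621 CPM in Cox4i2-led cells, so the log2 ratio was 0.33 in the former and 2.83 in the latter. In Cox4i2-led cells Dcn had a log2 ratio of 4.44, with 2 and 311 UMIs, Cxcl13 of 2.09, with 32 and 274 UMIs, and Nnat of 1.91, with 37 and 272 UMIs. In Higd1b-positive cells all 3 were under 50 CPM, with 12 and 7 UMIs of Dcn, the former in 1 cell, 13 and 5 of Cxcl13 and 40 and 32 of Nnat, and no direction is read from them. Fabp7 was at 267 and 41.8 CPM in Cox4i2-led cells (-2.54) and at 296 and 169 CPM in Higd1b-positive cells (-0.79). Igfbp3 had a ratio of -2 in Kcnk3-only cells. It was under 50 CPM in Higd1b-positive cells, with 59 UMIs in 12 cells and 19 UMIs in 7 cells, and in Cox4i2-led cells, with 11 UMIs in 3 cells and 63 UMIs in 17 cells, and no direction is read there. Of the 16 higher genes, 15 were 2-fold higher in Cox4i2-led cells, where all 16 were over 50 CPM, 9 in Kcnk3-only cells, where 11 were, and 4 in Higd1b-positive cells, where 6 were. In smooth muscle cells 6 of 13 were. The strata are parts of the gated cells in which the 16 were called, so the choice favoured this agreement. The 16 include Cxcl12 and Xist. Under the full calling rule, which is stricter, 1.29%, 0.905% and 0.618% of all genes were higher in Cox4i2-led, Kcnk3-only and Higd1b-positive cells. In smooth muscle cells 18 of 3320 were. Markers of adventitial fibroblasts moved with the 16 higher genes. The 8 markers, of which Dcn and Mfap5 are 2, summed to 293 and 696 CPM in Cox4i2-led cells. In the library labelled null, Dcn gave 137 CPM and Mfap5 150 CPM of this sum, so it counts called genes again in part. The markers summed to 294 and 212 CPM in Higd1b-positive and 128 and 283 CPM in Kcnk3-only cells, with Pi16 at 0 in the library labelled control. The adventitial gate itself held 52 and 260 cells, and the part of such cells in these ratios was not tested. Some genes were not particular to the gated cells. S100a6, Ptn and Mfap5 had log2 ratios of 1.90, 1.94 and 1.77 in alveolar fibroblasts. Igfbp3 had -2.14 in myofibroblasts, -1.66 in smooth muscle cells and -1.05 in arterial endothelial cells, but 0.78 in adventitial fibroblasts.

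**Figure D5:**
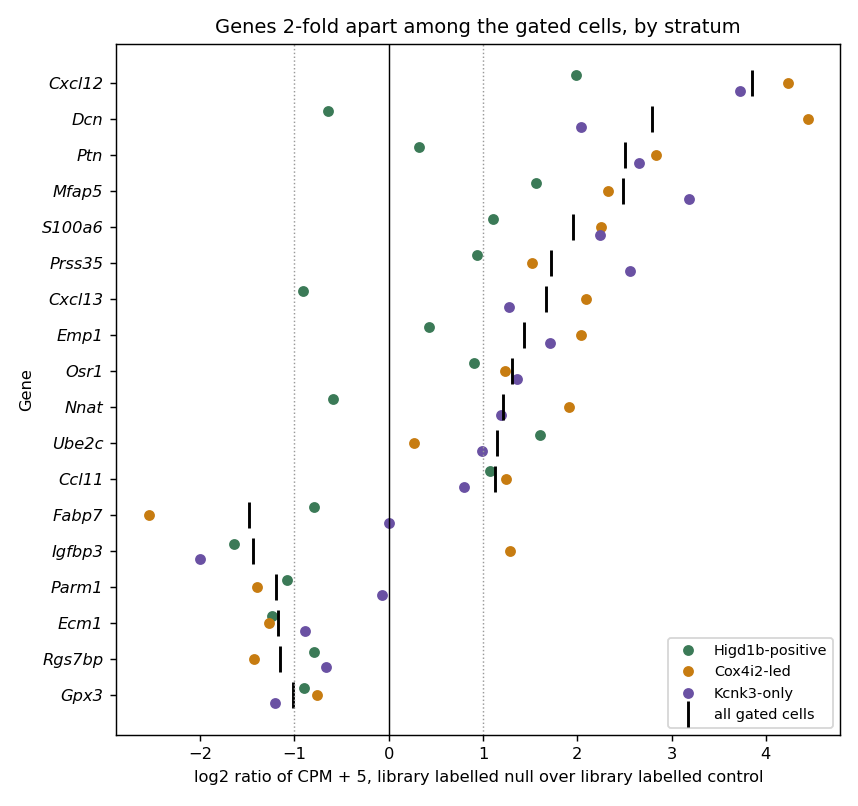
Log2 ratio of CPM + 5, library labelled null over library labelled control (x axis), of the 18 named genes (rows), for the 3 strata (coloured points) and for all gated cells (black bars), with dotted lines at 2-fold. Dcn, Cxcl13 and Nnat lie right of 1 in Cox4i2-led cells, and Fabp7 is lowest there at -2.54. Points of genes under 50 CPM, such as Dcn, Cxcl13 and Nnat in Higd1b-positive cells and Igfbp3 in Higd1b-positive and Cox4i2-led cells, rest on few UMIs, and no direction is read from them.

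Compared within strata, more genes passed the same rule, but each stratum held fewer cells and UMIs and its ratios spread more. The median size of the log2 ratio was 0.165 in Higd1b-positive, 0.165 in Cox4i2-led and 0.175 in Kcnk3-only cells, against 0.116 in the gated cells. The part of this spread in the counts of genes was not tested. In Higd1b-positive cells 20 of 3236 genes (0.618%) were higher in the library labelled null and 36 (1.11%) lower, in Cox4i2-led cells 39 of 3013 (1.29%) and 15 (0.498%), and in Kcnk3-only cells 33 of 3647 (0.905%) and 24 (0.658%). Of the genes called in the gated cells and in the Higd1b-positive cells, 4 higher genes were shared (25% of 16 and 20% of 20) and 2 lower ones (33.3% of 6 and 5.56% of 36). Among the 36 lower genes of the Higd1b-positive cells were 4 of the 8 listed alveolar fibroblast genes, namely Mfap4, Limch1, Npnt and Vegfd. Mfap4, a matrix protein, was at 2031 and 445 CPM, but 10 cells held 50.2% of its UMIs in the library labelled control and 84.9% in the library labelled null. Fn1, fibronectin, was at 682 and 186 CPM and found in 86 of 118 and 77 of 147 cells, of which 10 held 50.9% and 52.7% of its UMIs. Fabp4, at 212 and 23.3 CPM, rested on 10 cells that held 99.6% of its UMIs in the library labelled control. Angpt2, a ligand of TIE2 that counters Angpt1, was at 67.4 and 26.2 CPM.

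The higher genes of the Higd1b-positive cells were led, after Xist, by the macrophage genes Pf4, at 3.74 and 52.3 CPM, of whose UMIs 10 of 147 cells held 90.2% in the library labelled null and 1 cell held 37, and Ly86, and by genes of mitosis. Ccnb1, cyclin B1, was at 21.7 and 86.4 CPM, Ube2c at 115 and 361 CPM, Cdc20 at 26.2 and 87.0 CPM and Cenpf, a kinetochore protein, at 68.1 and 202 CPM. About as many cells had them, with Ccnb1 in 13 of 118 and 21 of 147 cells and Cenpf in 22 and 26. The share of cells with a cell cycle UMI, given above, had overlapping intervals, and 10 cells held 79.2% of the Cenpf UMIs in the library labelled null. The immune markers that moved with Pf4 summed to 35.9 and 180.2 CPM in these cells.

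Set beside all genes, whose median log2 ratio was -0.03, the medians of lists with at least 2 genes over 50 CPM ranged from -0.56 to 0.45 in the gated cells, apart from those of immune markers (-0.65) and sex genes (-0.81). None of the 11 pericyte markers over 50 CPM was called and their median was -0.14, and 0 of 11 contractile genes were called, with a median of -0.04. By stratum the contractile median was 0.05 in Higd1b-positive, -0.22 in Cox4i2-led and 0.68 in Kcnk3-only cells. In the Kcnk3-only cells 2 of 10 were higher, beside 0.905% of all genes, and the sum was 4885 and 7485 CPM. The same list summed to 4645 and 6925 CPM in myofibroblasts. The nitric oxide and cyclic GMP genes had a median of -0.25 with 0 of 5 called, the PDGF genes -0.20 with 0 of 5 and the Notch genes -0.30 with 0 of 7. The basement membrane genes had a median of -0.11 with 0 of 10 called, and the potassium channels 0.09 with 0 of 3. The respiratory chain isoforms had -0.08 with 0 of 9, and the immediate-early and stress genes 0.05 with 0 of 17.

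Among the lists farther from 0 were the angiopoietin genes, with a median of -0.56, 0 of 2 called and a sum of 182 and 131 CPM, and lists of fibroblast genes. The adventitial fibroblast genes had a median of 0.45 with 2 of 5 higher, Dcn and Mfap5, and summed to 252 and 433 CPM. The interstitial matrix genes had 0.24 with 1 of 19 higher, which was again Dcn, and summed to 11632 and 14523 CPM. The alveolar fibroblast genes had -0.52 with 0 of 5 called. In Cox4i2-led cells 6 of 18 interstitial matrix genes were higher, with a median of 0.75, beside 1.29% of all genes. Col1a1, a chain of type I collagen, was at 679 and 1435 CPM there and Col3a1, of type III, at 419.7 and 1118 CPM. The adventitial fibroblast markers summed to 293 and 696 CPM in the same cells. In Higd1b-positive cells, 0 of 17 interstitial matrix genes were higher and 2 lower, beside 0.618% and 1.11% of all genes. Their median was -0.33, and Col1a1 was at 542 and 464 CPM. Of the cell cycle genes 1 of 7 was higher in the gated cells, with a median of 0.39, and 4 of 11 in Higd1b-positive cells, with a median of 0.63. Of all genes, 0.503% were higher in the former and 0.618% in the latter. Ptn was the 1 higher gene of 5 growth factors and Ccl11 the 1 gene over 50 CPM in a list of 9 other chemokines, to which Cxcl13 did not belong. Of the TGF-beta and BMP, Wnt, vasomotor, transcription factor, hypoxia and glucocorticoid lists 0 genes were called in the gated cells, with medians from -0.14 to 0.15.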

How the data were processed

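Single-cell RNA was captured with the 10x 3′ v3 chemistry. Per the paper's methods and the submitters' processing notes, the authors aligned reads to mm10 with Cell Ranger 3.1 and adjusted the counts for free RNA with SoupX, with Fos, Dcn, Aspn, Bgn, Mgp and Postn among the genes that set its estimate. Their clustering in Seurat 3.2.2 was not used here. The deposited filtered matrices hold whole-number UMI counts per gene and barcode. The deposited SoupX matrices hold expected counts (adjusted counts that need not be whole), and they were used for the gate and as an alternative for levels. Levels were summed counts over cells per 1000000 UMIs (CPM), with exact Poisson intervals for levels and Clopper-Pearson intervals for shares, at 95%. Each library counts as 1 sample, so no test was run.

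The 2 whole-lung libraries held 85648519 UMIs (labelled control, 8845 barcodes) and 103857395 UMIs (labelled null, 9838 barcodes). Smooth muscle, fibroblast, endothelial, epithelial and immune classes were gated from their markers among cells outside the pericyte gate, and the smooth muscle and alveolar gates were widened after cell numbers were seen. For smooth muscle cells the sum of Acta2 and Tagln was at least 10, that of Myh11, Cnn1, Actg2, Lmod1 and Des at least 2 and Pdgfra at most 1. For myofibroblasts Hhip and Pdgfra were each at least 2. Doublets were called with Scrublet (scanpy 1.11.5, expected rate 8%) and kept in the main values. For shares of cells with a UMI, 2000 UMIs were drawn from every cell, and cells with fewer did not enter. Genes were named by a rule: gate genes, Cxcl12 and its receptors, the gene lists, the 20 leading genes over other cells, the 10 most above and below smooth muscle cells, the 12 largest calls in each direction between the libraries (without haemoglobin, mitochondrial, ribosomal and sex-linked genes) and the 5 most like Cxcl12. One gene that the rule names is not reported here. Genes named from the calls within Higd1b-positive cells were chosen after their values were seen. The members and lists were chosen with earlier results of these data known, and the strata were defined after the gated cells had been seen. The scripts were tested on simulated data. Python 3.11.15, numpy 2.4.6, scipy 1.17.1, pandas 2.3.3, R 4.3.3 and edgeR 4.0.16 (TMM factors only) were used.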

Additional observations from a re-analysis of the deposited data

Results flagged for a closer look

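The same gate, applied to the unadjusted counts of the 4 libraries sorted for DsRed, which the comparisons above do not use, took 14.8% (14.2 to 15.4) of the kept cells of the E13.5 library. In the E15.5 library it took 2.27% (2.01 to 2.56), in that of E18.5 0.796% (0.628 to 0.996) and in that of postnatal day (P) 8 0.166% (0.0906 to 0.278), each above the limit that a count of 0 allows. These were 1881, 265, 76 and 14 cells, of which 9, 9, 6 and 4 were Higd1b-positive and 1514, 239, 64 and 5 Cox4i2-led. Per the series design these libraries were sorted for DsRed and CD31, an endothelial surface protein, and against EpCAM and CD45, which would remove mural cells, so cells that pass this gate go against the sort. The methods of the study also describe a CD31-negative fraction that was collected, and the labels do not tie it to a library. The endothelial gene Cldn5 stood at 2.94, 7.22, 24.5 and 42.7 CPM in them. With 1 library per age, the ages and libraries cannot be told apart.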

How the results depend on the processing

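With 1 library per genotype no replicate could be left out. No paired analysis was possible because each genotype gave 1 library and the result comes from no test. Intervals cover counting error only, and free RNA, genotype and library cannot be told apart, while sex was held fixed in the values for cells with Y-linked transcripts. Restrictions to Higd1b-positive cells, to cells with Y-linked transcripts and to cells other than Kcnk3-only were chosen after seeing the data. Of the values under the alternatives that answer a comparison, 74 kept their size and 48 moved. Of the remaining values, which cover more than single genes, 416 kept their size, 89 moved and 3 reversed. The 3 reversed values were for single genes in Higd1b-positive cells alone, where these genes were under 50 CPM. For Dcn the log2 ratio was -0.64, with 12 and 7 UMIs, the former in 1 cell. For Cxcl13 it was -0.91 (13 and 5 UMIs) and for Nnat -0.59 (40 and 32 UMIs). The cause of these changes was not tested. In the 7 alternatives run for them, 14 to 20 of the 20 leading genes were shared with the list given.

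The share of gated cells in the libraries labelled control and null was 9.93% and 10.3% with the gate on unadjusted counts, 3.68% and 3.89% with a marker sum of at least 3, and 5.38% and 6.23% with at least 1. Cxcl12 in the library labelled control was 0 CPM in Higd1b-positive cells and 0 with SoupX-adjusted levels, and in the library labelled null 73.6 CPM with the gate on unadjusted counts, 14.8 CPM in Higd1b-positive cells and 104 CPM in cells with Y-linked transcripts. The 16 genes higher in the library labelled null became 10 with the gate on unadjusted counts, 9 in cells with Y-linked transcripts, 34 with SoupX-adjusted levels, 10 with the mean of single-cell CPM, 10 with a pseudocount of 20 CPM, 28 with a minimum of 20 CPM and 46 with none. The 6 lower genes became 2 with the gate on unadjusted counts, 12 with a marker sum of at least 3, 13 without called doublets, 36 in Higd1b-positive cells, 12 without the Kcnk3-only cells, 26 in cells with Y-linked transcripts, 36 with SoupX-adjusted levels, 3 with a pseudocount of 20, 14 with a minimum of 20 CPM and 23 with none. With TMM scaling the counts were 17 and 5. Lists of at least 3 genes over 50 CPM whose median lay at least 0.5 from that of all genes went from 1 to 3 with the gate on unadjusted counts, with a marker sum of at least 3, without doublets and in cells with Y-linked transcripts, to 4 in Higd1b-positive cells and with SoupX-adjusted levels, and to 2 without the Kcnk3-only cells, with the mean of single-cell CPM and with a pseudocount of 1. Against smooth muscle cells, 71 genes were higher and 80 lower with the gate on unadjusted counts, and 238 and 284 in Higd1b-positive cells. The share with a cell cycle UMI was 25.4% and 28.6% in Higd1b-positive cells, 22.8% in the library labelled control after thinning to 3000 UMIs and 14.4% in the library labelled null with the gate on unadjusted counts. The contractile share was 49.2% in the library labelled control with the gate on unadjusted counts, and 69.9% and 63.7% after thinning to 3000 UMIs.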

Other observations

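Within the library labelled null alone, a comparison added after the data were seen, the 5 genes whose levels were most like those of Cxcl12 over the 11 strata and classes were Prss23 (Pearson coefficient 0.88), Fbln2 (0.87), Nfe2l1 (0.83), Vegfc (0.82) and Trim47 (0.81). None of these was among the 5 most like Cxcl12 over both libraries, and the 11 points share 1 library.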
